A study of Mus musculus with 4 samples.

Results

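A set of 10 genes of antigen presentation were followed across 4 mouse RNA-seq libraries, 2 labeled WT and 2 labeled KO. The members were chosen by symbol and comprised the class I heavy chains H2-K1, H2-D1 and H2-T23, the light chain B2m, the peptide transport and loading genes Tap1, Tap2 and Tapbp, the immunoproteasome subunits Psmb8 and Psmb9, and the transactivator Nlrc5. All 10 had a row in each count table, out of 55367 genes, and all 10 passed the filter on low counts that left 11837 genes for testing. The libraries were made from polyadenylated RNA of dissociated tumors grown from the mouse melanoma line B16-F10, after a sort that the extraction protocol gives as CD45.2 and CD8 positive, while the cell type label names CD45.2 alone. CD45.2 marks blood-derived cells of mice with that allele and CD8 marks cytotoxic T cells. The series is about Satb1, a gene for a chromatin-organizing protein of T cells, and its design text names WT mice and Satb1 F/F mice carrying ThPOK-cre, which acts in CD4 lineage cells, or E8I-cre, which acts in mature CD8 T cells. Which of these drivers lies behind the KO label, how many animals gave each library, and their age and sex were not given in the labels, and nothing stated that libraries of a group came from separate animals. The p-values therefore measure only the spread between these libraries, which may be technical.

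MHC class I molecules display short peptides from inside the cell to CD8 T cells. The proteasome cuts proteins into peptides, the TAP transporter carries them into the endoplasmic reticulum, and tapasin helps load them onto a heavy chain paired with beta-2-microglobulin. Under interferon gamma, cells exchange catalytic subunits of the proteasome for those of the immunoproteasome, and NLRC5 drives transcription of most of these genes. Nearly all nucleated cells use the pathway, with leukocytes among the strongest users, whereas B16-F10 cells are known for low class I.

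The labels were checked against Satb1 and marker genes. Satb1 counts were 131 and 55 under the KO label but 7 and 5 under the WT label, which is against the direction of a knockout (adjusted p = 0.115, edgeR quasi-likelihood test), so the groups are named here by their labels only. Whether this came from the labels or from the make-up of the cells was not tested, and T cell markers summed to 15.45 times the WT level under the KO label. Xist counts were 435 and 216 under the WT label against 0 and 3 under the KO label, and sex and group cannot be told apart. Counts on genes ranged from 4017875 to 5382915 per library. Summed over 10 T cell markers, normalized CPM (read counts per fixed library total, after scaling by TMM factors) were 91.4 and 127.8 in the libraries labeled WT against 2148 and 1239 in those labeled KO, and 9 of the 10 markers were called higher, against 0.549% of all genes tested. Over 13 macrophage or monocyte markers the sums were 36360 and 43167 against 20173 and 29105, far above the T cell markers in every library, although the protocol names a sort for CD8. Over 8 dendritic cell markers they were 128 and 181 against 479 and 402. Of these 8, 6 were tested and 1 was called higher, against 0.549% of all genes. Without overlap, 3 were higher and 1, Batf3, was lower, against 25.3% and 22.6% of all genes. The 8 melanoma markers summed to 273 and 282 against 2041 and 1236, and 6 fibroblast or endothelium markers to 24.9 and 20.3 against 1155 and 186, where Pdgfrb was at 0 in both libraries labeled WT. B cell, NK cell and neutrophil markers each summed to at most 154, with Pax5 and Klra8 at 0 in all 4 libraries. Ptprc, which encodes CD45 itself, was at 40.6 and 171.9 against 409.3 and 186.2 normalized CPM. Actb, a cytoskeletal gene that all cells use, was at 12760 and 9207 against 4389 and 2467 (log2 fold change -1.68; adjusted p = 0.288, edgeR quasi-likelihood test). The part of these cell types in the results that follow was not tested, and in bulk RNA fewer cells of a type and less RNA per cell cannot be told apart.

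Of the 10 genes, 8 had a 300-base promoter window in RefSeq (GRCm38.p6; 250 bases before to 50 after a start site), and those of Tap2 and Nlrc5 were not analysed here. Those of 4 genes are shown because they carry the motifs that the classical heavy chains share with their light chain and the start region that Tap1 shares with Psmb9. The windows lie at chr17:34000298-34000597 on the minus strand for H2-K1, chr17:35262844-35263143 on the plus strand for H2-D1, chr2:122147437-122147736 on the plus strand for B2m and chr17:34187306-34187605 on the plus strand for Tap1. Capitals mark matches on either strand to GGG, 2 free bases, T, 2 free bases and CC in a row (kappaB-like), GAAA or GAA followed by 2 free bases and GAAA (interferon response element-like), TGACG (CRE-like) and CCAAT. These motifs were chosen with the sequences in view, and kappaB-like matches can overlap one another.
H2-K1: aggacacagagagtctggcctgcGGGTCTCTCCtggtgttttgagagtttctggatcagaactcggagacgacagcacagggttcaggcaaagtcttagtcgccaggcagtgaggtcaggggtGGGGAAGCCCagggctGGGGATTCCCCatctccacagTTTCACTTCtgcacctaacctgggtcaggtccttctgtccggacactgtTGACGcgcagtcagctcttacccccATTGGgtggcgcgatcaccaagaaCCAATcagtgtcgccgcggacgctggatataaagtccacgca
H2-D1: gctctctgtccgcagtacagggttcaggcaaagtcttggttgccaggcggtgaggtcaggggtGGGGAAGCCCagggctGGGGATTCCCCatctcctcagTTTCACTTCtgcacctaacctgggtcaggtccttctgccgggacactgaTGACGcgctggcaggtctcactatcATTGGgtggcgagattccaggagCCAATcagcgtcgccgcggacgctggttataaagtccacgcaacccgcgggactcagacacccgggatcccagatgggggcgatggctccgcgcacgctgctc
B2m: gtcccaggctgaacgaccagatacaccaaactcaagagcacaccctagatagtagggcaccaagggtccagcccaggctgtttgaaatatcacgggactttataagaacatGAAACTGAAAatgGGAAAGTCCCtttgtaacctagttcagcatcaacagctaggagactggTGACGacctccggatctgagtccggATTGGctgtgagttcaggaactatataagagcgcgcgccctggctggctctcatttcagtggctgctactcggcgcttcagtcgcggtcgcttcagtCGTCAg
Tap1: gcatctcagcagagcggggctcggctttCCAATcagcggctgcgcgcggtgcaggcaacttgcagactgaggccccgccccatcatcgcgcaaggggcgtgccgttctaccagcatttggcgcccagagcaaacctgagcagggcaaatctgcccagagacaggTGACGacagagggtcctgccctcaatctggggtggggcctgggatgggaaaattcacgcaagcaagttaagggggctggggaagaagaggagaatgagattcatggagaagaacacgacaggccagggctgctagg

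All 4 motifs occurred in the windows of H2-K1, H2-D1 and B2m, and in 34 of 32851 RefSeq mouse windows of this length (0.103%). In H2-K1 and H2-D1 they stood in the same order, with kappaB-like matches followed by the interferon response element-like, CRE-like and CCAAT matches. In B2m the interferon response element-like match came before the kappaB-like one. H2-T23 held only the interferon response element-like and CCAAT motifs, Tap1 and Psmb9 the CRE-like and CCAAT motifs, Tapbp the CCAAT motif, and Psmb8 none of them. The start sites of the Tapbp and Psmb8 windows were bases 33919478 and 34198195 of chromosome 17. These and some others lie inside the gene spans given below, which begin at 33915899 for Tapbp and 34197721 for Psmb8. Taken alone, the kappaB-like motif was in 3 of the 8 members' windows and in 18.4% of all windows, the interferon response element-like motif in 4 and 10.4%, the CRE-like motif in 5 and 20.8%, and CCAAT in 7 and 37.4%. The windows of Tap1 and Psmb9 shared 275 bases on opposite strands, with start sites 226 bases apart. The CRE-like and CCAAT matches of these genes lie on the same bases and were counted for both. All motif matches describe letters in a window and are not binding sites.

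In the libraries labeled KO, transcripts of 8 members stood below both libraries labeled WT without overlap, yet no member passed the test. The 8 were H2-K1, H2-D1, H2-T23, B2m, Tap1, Tapbp, Psmb8 and Psmb9, with fitted log2 fold changes from -1.004 to -0.56. Nlrc5 was higher without overlap and Tap2 overlapped. The adjusted p-values of the 10 members ranged from 0.395 to 0.992 (edgeR quasi-likelihood test, Benjamini-Hochberg adjustment over 11837 genes). No member reached an unadjusted p under 0.05 in this test, against 13.7% of all genes, and 0.574% of all genes passed the adjusted threshold. In DESeq2, 4 members had an unadjusted p under 0.05, beside 1708 of all 11837 genes. In edgeR's likelihood ratio test 1 member did, beside 1938 of 11837. The adjusted threshold was passed by 0 members in either, beside 416 genes in DESeq2 and 556 in the likelihood ratio test. Of all genes tested, 22.6% were lower without overlap and 25.3% higher, and 47.4% had a log2 fold change below 0. The median log2 fold change of the members was -0.69, beside 0.051 over all genes tested.

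**Figure D1:**
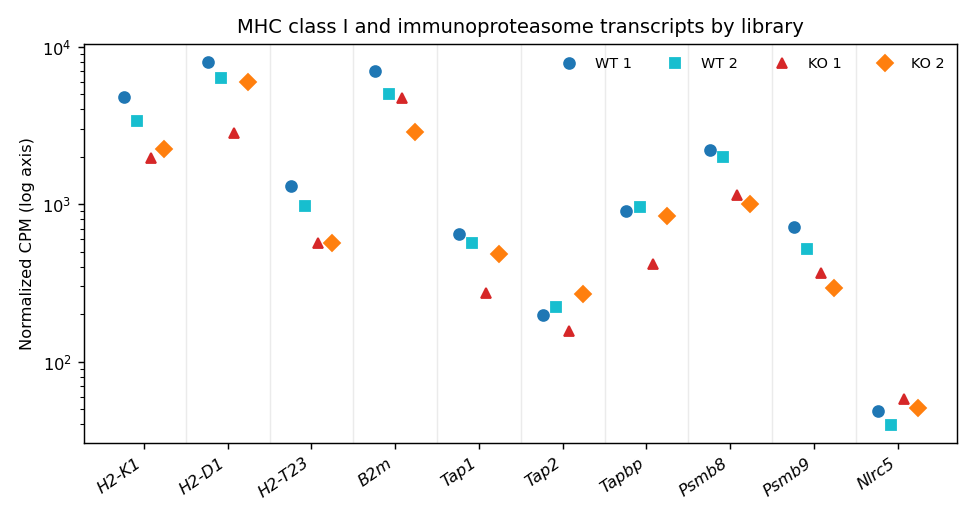
Normalized CPM (log axis) of the 10 class I and immunoproteasome genes, with 1 point for each of the libraries WT 1, WT 2, KO 1 and KO 2. For 8 genes both points labeled KO lie below both labeled WT, while those of Tap2 interleave and those of Nlrc5 lie higher.

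The scale on which libraries were compared bore on this pattern. With library size alone in place of TMM factors, the median over all genes moved from 0.051 to 0.39 on the log2 scale and that of the members from -0.69 to -0.37. On that scale H2-D1, B2m and Tapbp overlapped as well, which left 5 members lower without overlap (12.6% of all genes) and Nlrc5 higher (35.9%). The share of gene counts that fell on the 10 members is on this same scale, and H2-D1, B2m and H2-K1 made up most of it. It was 2.13% for WT 1 (exact 95% interval 2.12 to 2.14), 1.89% for WT 2 (1.88 to 1.90), 1.46% for KO 1 (1.45 to 1.47) and 1.55% for KO 2 (1.54 to 1.56), where the intervals cover counting error only. Both libraries labeled KO thus held a smaller share than either labeled WT.

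H2-K1 and H2-D1 encode the classical heavy chains that present peptide to CD8 T cells. H2-K1 (ENSMUSG00000061232.16) spans bases 33996017 to 34000347 of chromosome 17 (GRCm38, minus strand). Its counts were 15948 and 13597 under the WT label and 10251 and 12889 under the KO label. Its normalized CPM were 4794 and 3368 in the libraries labeled WT (mean 4081 ± 1008, SD, n = 2) against 1950 and 2249 in those labeled KO (2099.9 ± 211). The groups did not overlap, the spread was wider within WT, and the log2 fold change of -0.96 (SE 0.54) missed the threshold (adjusted p = 0.462, edgeR quasi-likelihood test). H2-D1 (ENSMUSG00000073411.11; chromosome 17, 35262730 to 35267499, plus strand) was at 7967 and 6306 against 2844 and 5935 normalized CPM. KO 1 alone stood far below, KO 2 lay close to WT 2, and the log2 fold change of -0.70 (SE 0.61) became -0.27 without KO 1 and -1.36 without KO 2.

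H2-T23 encodes Qa-1, a nonclassical heavy chain that presents leader peptides of other class I molecules to the receptor made of CD94 and NKG2A. The gene (ENSMUSG00000067212.8) spans 36029773 to 36032855 on the minus strand of chromosome 17. Its normalized CPM were 1295 and 974 against 567 and 564, a log2 fold change of -1.004 (SE 0.48), the lowest of the 10 members (adjusted p = 0.395, edgeR quasi-likelihood test). The libraries labeled KO were nearly level (SD 1.71), so nearly all of the spread was between those labeled WT. Heavy chain genes share sequence, and of all stretches of 50 bases in the transcript, 8.79% for H2-K1, 14.3% for H2-D1 and 28.8% for H2-T23 also occurred in another gene, mostly another class I gene or pseudogene. Reads from such stretches may be lost or split in counting, which makes these 3 values uncertain.

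B2m encodes beta-2-microglobulin, the light chain without which most class I molecules do not reach the surface. The gene (ENSMUSG00000060802.8; chromosome 2, 122147686 to 122153083, plus strand) is, with Nlrc5, 1 of 2 members outside chromosome 17. Its normalized CPM were 6948 and 5022 against 4705 and 2880, so that WT 2 and KO 1 were near neighbors, and its log2 fold change was -0.66 (SE 0.58). Here the lower library was KO 2, not KO 1, and the value moved to -0.38 without KO 2 and to -1.06 without KO 1. It was -1.43 with each library's trend on GC content removed, still short of the threshold (adjusted p = 0.325, edgeR quasi-likelihood test). The light chain therefore differed from H2-D1 in which library carried the difference. Within each library, the log2 ratio of B2m to H2-D1 per length was 1.09 for WT 1, 0.96 for WT 2, 2.02 for KO 1 and 0.25 for KO 2. The libraries labeled KO thus lay on either side of those labeled WT, and the same held for B2m to H2-K1 (1.66, 1.70, 2.39 and 1.48).

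Tap1 and Tap2 encode the partner chains of the peptide transporter, and Tapbp encodes tapasin, which bridges the transporter to the empty heavy chain. Tap1 (ENSMUSG00000037321.17; chromosome 17, 34187553 to 34197225, plus strand) was at 650 and 567 against 272 and 485 normalized CPM, with a log2 fold change of -0.69 (SE 0.49). Tapbp (ENSMUSG00000024308.15; chromosome 17, 33915899 to 33929292, plus strand) was at 900 and 953 against 417 and 838, with a log2 fold change of -0.56 (SE 0.52). In both genes KO 1 was the lowest library and KO 2 lay much closer to WT, and the values were -0.33 and -0.15 without KO 1 but -1.20 and -1.19 without KO 2 (adjusted p = 0.0673 and 0.0698, edgeR quasi-likelihood test). Tap2 (ENSMUSG00000024339.12; chromosome 17, 34203527 to 34216321, plus strand) was at 198 and 222 against 156 and 268, so that KO 1 and KO 2 enclosed both libraries labeled WT. Its log2 fold change was 0.015 (SE 0.46), with no direction to report, since it was -0.46 without KO 2 and 0.35 without KO 1.

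The proportion of the transporter's partners was compared within each library. The log2 ratio of Tap1 to Tap2 per length was 1.53 for WT 1 and 1.17 for WT 2, but only 0.62 for KO 1 and 0.67 for KO 2. The difference was -0.71, beside an SD of 0.26 within WT and 0.036 within KO. The ratios were not tested, since 0.333 is the smallest p that a two-sided exact permutation test gives with 2 libraries per group. Counting without strand could touch these genes, because Tap1 and Psmb9 overlap on opposite strands over 3.87% of the exon bases of Tap1, and antisense or neighboring genes overlap 18.5% of those of Tap2 and 29.0% of those of Tapbp. The strand setting was not stated.

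Psmb8 and Psmb9 encode catalytic subunits that take the places of Psmb5 and Psmb6 in the immunoproteasome. Psmb8 (ENSMUSG00000024338.15; chromosome 17, 34197721 to 34201454, plus strand) was at 2217 and 1981 against 1141 and 1007 normalized CPM. Its groups lay far apart compared with their SDs of 167 and 94.9, and the log2 fold change was -0.97 (SE 0.50; adjusted p = 0.430, edgeR quasi-likelihood test). Psmb9 (ENSMUSG00000096727.3; chromosome 17, 34181987 to 34187764, minus strand) was at 716 and 517 against 364 and 292, a log2 fold change of -0.91 (SE 0.47). Together with H2-K1 and H2-T23, they kept a log2 fold change below -0.5 in each of the 16 alternatives with values for single members. None passed the threshold in any of these. Psmb8 shares 14.7% and Psmb9 5.79% of its exon bases with a gene on the other strand.

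Ratios within a library compared each inducible subunit with the constitutive one it replaces, on the scale of counts per length of the longest transcript. The log2 ratio of Psmb8 to Psmb5 was 2.17 for WT 1 and 2.45 for WT 2, beside 2.099 for KO 1 and 2.04 for KO 2, which is a ratio of 4.11 to 5.46 in favor of the inducible subunit in every library. Both libraries labeled KO lay below both labeled WT, with a difference of -0.24 beside SDs of 0.19 within WT and 0.043 within KO, or -0.11 without WT 2 and -0.38 without WT 1. The log2 ratio of Psmb9 to Psmb6 was -1.96 and -1.81 against -1.48 and -2.32, so the groups overlapped, and their difference was -0.43 without KO 1 and 0.41 without KO 2. Psmb10, the remaining inducible subunit, had a log2 ratio to Psmb7 of 3.15 and 3.23 against 2.24 and 2.78, a difference of -0.68 beside SDs of 0.058 and 0.38, or -0.41 without KO 1 and -0.95 without KO 2. Among the constitutive partners, log2 fold changes were -0.74 for Psmb5, -0.90 for Psmb6 and -0.42 for Psmb7, the last of which was -0.81 without KO 1, -0.16 without KO 2 and -0.062 with library size alone. With library size alone Psmb5 was at -0.38 and Psmb6 at -0.55, and with the GC trend removed they were at -0.32 and -0.56. How far each ratio lies from 0 depends on the transcript length used, whereas differences between libraries do not.

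**Figure D2:**
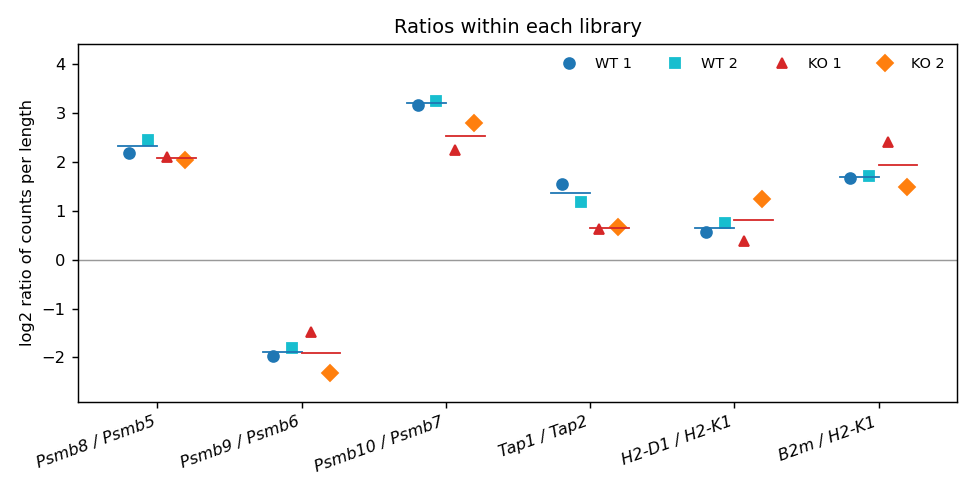
Log2 ratio of counts per length for 6 gene pairs within each library (points) and the mean of each group (lines). The pairs Psmb8 to Psmb5, Psmb10 to Psmb7 and Tap1 to Tap2 are lower in both libraries labeled KO, while the pairs with B2m and H2-D1 spread more between KO 1 and KO 2 than between the groups.

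Nlrc5 encodes the transactivator that is recruited to class I promoters. The gene (ENSMUSG00000074151.13; chromosome 8, 94434356 to 94527272, plus strand) had few counts, with 162 and 161 under the WT label and 303 and 290 under the KO label. Its normalized CPM were 48.7 and 39.9 against 57.7 and 50.6, so that WT 1 and KO 2 were nearly level, and its log2 fold change of 0.29 (SE 0.43; adjusted p = 0.80, edgeR quasi-likelihood test) was within its error. It was 0.10 without WT 2, 0.19 without KO 1 and 0.64 with library size alone. Nlrc5 was the only member higher in both libraries labeled KO, where 8 of its companions were lower.

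Per kilobase of transcript, the members spanned a wide range and kept nearly 1 order. From the highest, the order was B2m, H2-D1, H2-K1, Psmb8, H2-T23, Psmb9, Tapbp, Tap1, Tap2 and Nlrc5. B2m ranged from 3349 to 8079 normalized CPM per kilobase and ranked 13, 17, 9 and 16 among 11674 genes in WT 1, WT 2, KO 1 and KO 2. H2-D1 ranged from 1353 to 3790, with ranks of 18 to 48, and H2-K1 from 1205 to 2961, with ranks of 36 to 58. Tap2 ranged from 45.4 to 77.9 and Nlrc5 from 5.26 to 7.61, with ranks of 5863 to 6690, near the middle of the genes tested. Neighbors in this order differed beyond the spread of their log2 difference over the 4 libraries except Psmb9 and Tapbp, whose difference of 0.37 had an SD of 0.60 and held in 3 of 4 libraries.

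Members differed from one another in which library was extreme. WT 1 was the highest library for 7 members and WT 2 for 1, while KO 1 was the lowest for 5 and KO 2 for 4. By the distance between log2 profiles centred over the 4 libraries, H2-K1 was nearest to the members' median profile (0.29) and Nlrc5 farthest (1.05), followed by Tap2 (0.84) and B2m (0.71). Among 6234 other genes with a mean of at least 20 CPM, the profiles nearest to that median were those of Tmem116 (0.089), BC147527 (0.099), Ly9 (0.10), Notch2 (0.12) and Hras (0.12). These are distances over only 4 libraries.

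Fold changes varied with transcript length across all genes. The median log2 fold change was -0.29 among 1212 genes with transcripts of up to 1000 bases and increased with each length class to 0.37 among 1334 genes above 6000 bases. Each of the 10 members lay below the median of its own length class, including Tap2 (0.015 against 0.15) and Nlrc5 (0.29 against 0.37). With each library's trend on length removed, all 10 members had a log2 fold change below 0, from -0.83 for Psmb8 to -0.088 for Nlrc5, and none passed the threshold. Across genes, which are not independent replicates, Spearman's correlation of length with the centred log2 level was -0.21 for WT 1, -0.13 for WT 2, 0.11 for KO 1 and 0.21 for KO 2. The part of this trend in the members' differences beyond that correction was not tested.

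**Figure D3:**
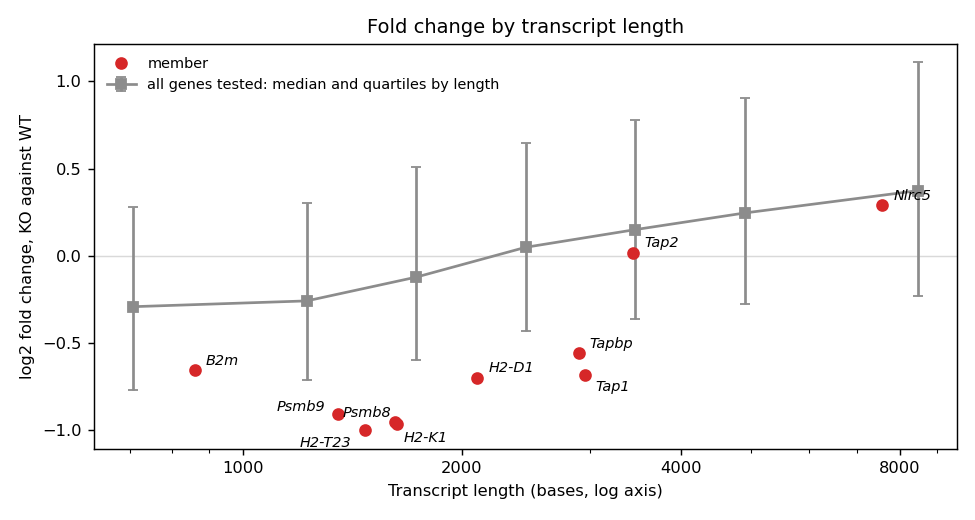
Log2 fold change of KO against WT by transcript length in bases (log axis), with the 10 members as red points and the median and quartiles of all genes tested in 7 length classes in gray. Every member lies below the gray line for its length class.

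The rest of the pathway was described by lists of genes with a set role, chosen with earlier results of these data known. Of 18 further class I and class I-like heavy chains, 14 were tested and 0 passed the threshold, with a median log2 fold change of -0.62, or -0.32 with library size alone. H2-Q7, a Qa-2 chain, was at 916 and 417 normalized CPM in the libraries labeled WT against 217 and 311 in those labeled KO (log2 fold change -1.33, SE 0.54, or -0.71 without WT 1), and 7 of the 14 were lower without overlap against 22.6% of all genes. Cd1d1, which presents lipids rather than peptides, was at 9.02 and 20.8 against 23.6 and 21.8 (log2 fold change 0.60, SE 0.56, or 0.068 without WT 1 and 1.28 without WT 2). All 4 further inducible proteasome genes had values below 0, and 3 were lower without overlap, against 22.6% of all genes. Their median was -0.53, with 0 past the threshold. It was -0.17 with library size alone, -0.27 with the length trend removed and -0.83 without KO 1. The largest fall was that of Psmb10, at 766 and 696 against 348 and 315 normalized CPM (log2 fold change -1.14, SE 0.46). The 14 constitutive core subunits had a median of -0.26, which was 0.099 with library size alone, -0.56 without KO 1 and -0.087 without KO 2, and 0 passed. It was -0.14 with the length trend removed and -0.51 with the GC trend removed. Of these 14 subunits 7 were lower without overlap, as many as among the heavy chains, against 22.6% of all genes. They ran from Psmb6 (933 and 607 against 340 and 487; log2 fold change -0.90) to Psma1 (139 and 206 against 275 and 188; 0.42), which overlapped and was 0.10 without WT 1 and 0.12 without KO 1.

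The genes that trim peptides, help loading or fold proteins in the endoplasmic reticulum were divided. Of these 12 genes 0 passed the threshold, 7 had a log2 fold change above 0 and 5 below, 5 were higher without overlap against 25.3% of all genes, none was lower without overlap, and the median log2 fold change was 0.41, which ranged from 0.17 (without KO 1) to 0.74 (without KO 2) with each library left out and was 0.76 with library size alone. Hspa5, the chaperone BiP, was at 527 and 868 against 1776 and 1606 normalized CPM (log2 fold change 1.28, SE 0.52; adjusted p = 0.321, edgeR quasi-likelihood test). At the other end, Lap3, a cytosolic leucine aminopeptidase, was at 74.5 and 185.5 against 105 and 118, with both libraries labeled KO between those labeled WT. With the length trend removed the median of this list was 0.058.

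Among 22 regulators of class I genes, including interferon signaling and the promoter-binding RFX and NF-Y subunits, 0 passed the threshold and the median was -0.090, or 0.23 with library size alone and -0.47 without KO 2. Ezh2, a histone methyltransferase that can silence class I genes, was at 4.81 and 15.4 against 44.9 and 31.6 normalized CPM (log2 fold change 1.91, SE 0.62; adjusted p = 0.234, edgeR quasi-likelihood test), and its value was 1.25 without WT 1 and 2.93 without WT 2. Batf3, a dendritic cell transcription factor that also acts in T cells, was at 51.1 and 64.9 against 28.5 and 13.1 (log2 fold change -1.48, SE 0.51), or -0.90 with the GC trend removed. Irf1, an interferon-induced activator of class I promoters, overlapped between the groups, at 377 and 335 against 254 and 345, and was named after its values were seen.

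The list of class I receptors and related receptors was the only one of these lists with genes past the threshold. Of its 14 genes 12 were tested, and 4 were called higher in the libraries labeled KO and 0 lower, against 0.549% and 0.0253% of all genes. Cd8a, a chain of the coreceptor that binds class I, was at 7.21 and 6.93 against 160 and 128 normalized CPM (log2 fold change 4.34, SE 0.48; adjusted p = 0.0172, edgeR quasi-likelihood test). Its partner Cd8b1 was at 6.91 and 10.6 against 138 and 67.9 (3.54), and Klrc1, which encodes NKG2A, the receptor for Qa-1, at 1.503 and 7.43 against 69.4 and 67.4 (3.90). Without WT 1, Cd8b1 and Klrc1 missed the threshold (adjusted p = 0.1102 and 0.111, edgeR quasi-likelihood test). Cd160, a further class I receptor, had 0 and 3 counts against 246 and 120, which is a ratio of 81.8 (95% interval 27.8 to 398, counting error only). That ratio rests on the 3 counts of WT 2. The fitted log2 fold change of 6.31 was 5.39 without WT 1 and 5.37 with a prior count of 2. It was 10.3 without WT 2, where the WT label held 0 counts. Cd8a and Cd8b1 are also among the T cell markers given above, 9 of 10 of which were called higher. Pilrb1, an activating receptor of myeloid cells that is not known to bind class I, was at 79.1 and 97.1 against 19.98 and 39.8 (log2 fold change -1.56, SE 0.49) and missed the threshold. The ligand of NKG2A and its receptor gene thus stood on opposite sides in these libraries, with H2-T23 not past the threshold.

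MHC class II genes, which display peptides from outside the cell and are restricted to antigen-presenting cells, had 0 of 10 past the threshold and a median log2 fold change of -0.68, beside -0.69 for the class I members. These medians parted when a library was left out, to -1.03 for class II and -0.64 for the members without WT 1 and to -0.34 and -0.91 without WT 2. In the same order they were -0.35 and -0.37 with library size alone, and -0.30 and -0.47 with the GC trend removed. Ciita, the class II counterpart of Nlrc5, was at 80.9 and 164 against 93.4 and 44.7 normalized CPM (log2 fold change -0.83, SE 0.53), which overlapped and gave -0.29 without WT 2 and -1.46 without KO 1. H2-DMb2, a chain of the class II peptide exchanger, was at 27.4 and 76.0 against 97.0 and 51.1 (0.52, SE 0.57) and changed direction without WT 1 (-0.11) or KO 1 (-0.028). Of the 10 class II genes 6 were lower without overlap, and of the 13 macrophage or monocyte markers 8 were, against 22.6% of all genes, and 0 markers passed the threshold.

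**Figure D4:**
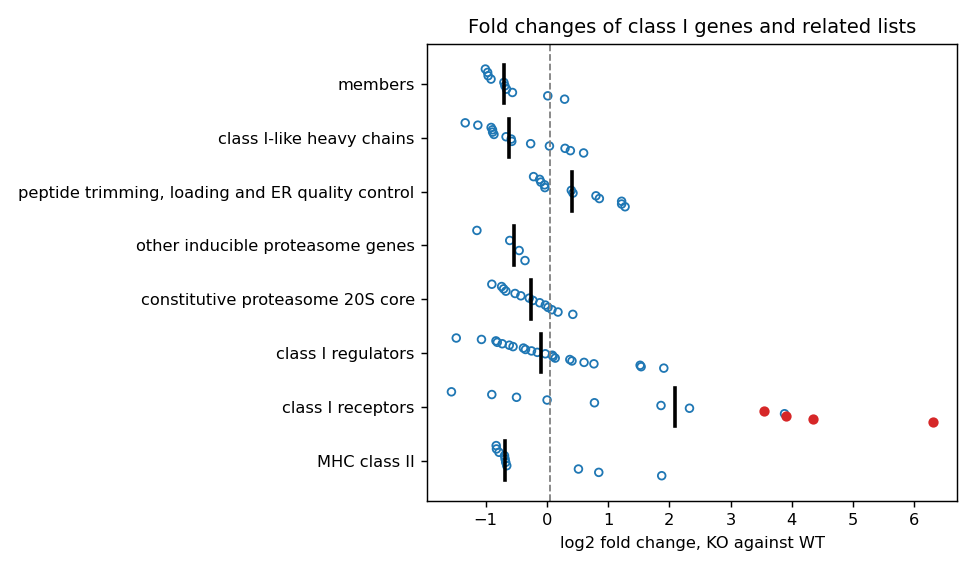
Log2 fold change of KO against WT for each tested gene of the members and of 7 related lists, with genes past the threshold filled in red, a black bar at each list's median and a dashed line at the median of all genes tested. The members, the other heavy chains and the class II genes have medians between -0.69 and -0.62, whereas the class I and related receptors have a median of 2.097 and hold all 4 genes past the threshold.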

How the data were processed

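The authors deposited unnormalized read counts per gene, 1 table per library; per the labels and the study's methods, reads were aligned to mm10 with HISAT2 2.1.0 and counted with HTSeq 0.11.0. Annotation, strand setting and trimming were not stated. The 5 rows of each table that name no gene held 71.2 to 79.5% of its counts and entered neither library sizes nor tests. Groups came from the library titles. Libraries held 4017875 to 5382915 gene counts, where 3 counts are 0.524 to 0.902 normalized CPM.

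Counts were analyzed with edgeR 4.0.16 in R 4.3.3: filterByExpr (minimum count 10, total 15), TMM factors and the two-sided quasi-likelihood F test with group as the only term, adjusted by the Benjamini-Hochberg method over 11837 genes at a threshold of 0.05. The SE is the log2 fold change divided by the square root of F. Levels used the longest transcript with a consensus coding sequence, from GENCODE M21 (GRCm38), which held 96.4% of the symbols. Positions are 1-based. Scripts were tested on simulated data.

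The members and lists were chosen with earlier results of these data known. Named genes were the members, the genes of each list past the threshold, its largest value in each direction among genes with a mean of at least 20 CPM in the higher group, the proteasome partners, the 5 nearest profiles, and Satb1. Irf1, Actb, Ptprc, Xist, Pdgfrb, Pax5 and Klra8 were added after their values were seen or as markers. The alternatives were other scalings and filters, DESeq2 1.42.0, the likelihood ratio test, a replicate block, a prior count of 2, a fit without antigen receptor, mitochondrial and ribosomal protein genes, other lengths for ratios, and each library left out. Removal of length or GC trends (lowess, span 0.3), consensus coding lengths for ratios and a crossed block were chosen after seeing the data.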

Additional observations from a re-analysis of the deposited data

How the results depend on the processing

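None of the 10 members passed the threshold under any of the 16 alternatives with values for single members, and 155 of these 160 values kept their direction. The 5 that reversed were Tap2 with a replicate block (-0.034), with the length trend removed (-0.16), without WT 1 (-0.11) and without KO 2 (-0.46), and Nlrc5 with the length trend removed (-0.088). Tap2 ranged from -0.46 to 0.35 when each library was left out. The lowest adjusted p of a member was 0.0644, for H2-D1 without KO 2 (edgeR quasi-likelihood test). With the GC trend removed the members' values ran from -1.43 (B2m) to 0.45 (Nlrc5), with a median of -0.47. The members' median log2 fold change of -0.69 moved to -0.37 with library size alone and ranged from -0.98 to -0.60 when each library was left out, the lowest without KO 2. A group left with 1 library was assumed to vary like the other.

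The count of all genes past the threshold, 68, was 134 with library size alone, 583 with no filter on low counts, 416 in DESeq2, 556 in the likelihood ratio test and 186 with the GC trend removed. It ranged from 113 to 1248 when each library was left out (113 without WT 1, 228 without WT 2, 123 without KO 1, 1248 without KO 2). The libraries share replicate numbers across groups, but only 2 pairs exist and the deviations of same-numbered libraries had a correlation of -0.18, so the numbers were not taken as pairs. In the crossed pairing, 9 of the 10 members had a log2 fold change below 0, beside 8 in the main fit, with a median of -0.76. Values and calls of single members were not kept for it. A replicate block gave 215 genes and a crossed pairing 647, and the replicate block changed no call of a member. The cause of these changes was not tested.

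With union exon length and with consensus coding length, respectively, the mean log2 ratio of Psmb8 to Psmb5 was 1.49 and 2.54 in WT (2.31 with the longest transcript) and 1.24 and 2.30 in KO (2.07). That of Psmb9 to Psmb6 was -1.27 and -1.07 in WT (-1.89) and -1.29 and -1.08 in KO (-1.90). That of Psmb10 to Psmb7 was 3.08 and 1.90 in WT (3.19), and 1.22 in KO with consensus coding length (2.51).

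Among other genes, Lap3 reversed with library size alone (0.077) and without WT 2 (range over libraries left out -0.78 to 0.54), Psma1 with the GC trend removed (-0.094), and H2-DMb2 without WT 1 and without KO 1 (-0.028; range -0.11 to 1.37). Klrc1 missed the threshold in 4 alternatives (highest adjusted p = 0.111, edgeR quasi-likelihood test, without WT 1) and Cd8b1 in 1 (0.1102, without WT 1). Pilrb1 passed without KO 2 (adjusted p = 0.0136), and Satb1 passed in 5 alternatives.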
